A study of Mus musculus with 2 samples.

Results

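The cells described here are mature oligodendrocytes in which RNA of Il33, the gene of the cytokine interleukin-33, was captured, and which held no RNA of 3 other genes that mark reactive or alternative mature states. They were chosen from single-cell RNA counts by rule. A barcode (the tag shared by all RNA of a droplet) had to show at least 500 genes and at most 15% mitochondrial unique molecular identifiers (UMIs, each counting a captured RNA molecule). It had to hold at least 40 UMIs of the myelin genes Mobp, Mog and Mal together per 10000 of its UMIs, no UMI of C4b, Serpina3n or Klk6, and at least 1 UMI of Il33. Of 4841 barcodes in all, 157 met the rule, 72 of 2775 ipsilateral and 85 of 2066 contralateral ones, and they are called Il33-positive. They are set against 792 mature barcodes with no UMI of any of the 4 genes (466 ipsilateral, 326 contralateral), called Il33-zero. Since the values of Il33 and of the other 6 genes chose the barcodes, those values are description only.

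Male C57/BL6 mice had a middle cerebral artery occluded (MCAO) for 60 minutes at postnatal day 10, followed by 2 weeks of reperfusion before lateral striata were dissected. The ipsilateral library holds cells from the occluded hemisphere and the contralateral library cells from the other hemisphere, each a pool of tissue from 3 animals. Cells carrying A2B5 or O4, which together span oligodendrocyte precursors to mature cells, were collected by sorting. The contralateral tissue belonged to operated animals, so no uninjured brain is part of the comparison. With 1 library per side and cells that are not replicates, no test could be made; all intervals are 95% intervals for counting error only.

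Oligodendrocytes wrap axons in myelin, and mature ones differ in the genes they carry besides the shared myelin genes. Interleukin-33 is kept in the nucleus and acts as an alarm signal when a cell is damaged, through the receptor chain encoded by Il1rl1 (ST2) and its partner Il1rap. In the mouse brain its RNA is known from oligodendrocytes and astrocytes. Ptgds, which encodes lipocalin-type prostaglandin D synthase, and Car2, a carbonic anhydrase, are known with Il33 as markers of a group of late mature oligodendrocytes. Il33 lies on chromosome 19 at 29925114 to 29960718, plus strand (GRCm38, the mm10 build, GENCODE M21), and shares no 31-base word with another gene's transcripts, so its reads could not be split with a near copy. Klk6 shares none either. C4b shares 48.3% and Serpina3n 21.6% of such words with other genes, so a count of 0 for them is uncertain.

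The label mature oligodendrocyte was checked on 7 markers that the rule did not use (Mag, Opalin, Cldn11, Ermn, Aspa, Hapln2 and Gjb1). They summed to 17166 CPM (UMIs per 1000000 summed UMIs of a set) in ipsilateral Il33-positive barcodes, against 17293 CPM in Il33-zero barcodes and 836 CPM in the 1438 barcodes under the myelin threshold. In the contralateral library they summed to 16007 CPM in Il33-positive barcodes, against 15476 CPM in Il33-zero barcodes and 436 CPM in 1315 barcodes under the threshold. The myelin values that chose the members are given as a description. The members' lowest values of Mobp, Mog and Mal together were 134 (ipsilateral) and 81.2 (contralateral) per 10000 UMIs, with medians of 219 and 223. The 20 ipsilateral and 17 contralateral barcodes with Il33 below the threshold reached at most 8.48 and 4.03 per 10000.

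Il33 itself was at the edge of detection in most members. A single Il33 UMI was found in 46 of 72 ipsilateral members (63.9%) and in 43 of 85 contralateral ones (50.6%), and 16 and 25 held 3 or more. The highest barcodes held 8 and 15 UMIs. Summed over the members, Il33 stood at 63.8 CPM (145 UMIs) ipsilaterally and 85.1 CPM (219 UMIs) contralaterally. Depth was much alike in the compared sets. The median was 30278.5 UMIs in ipsilateral Il33-positive and 27951 in Il33-zero barcodes, and 28468 and 27482 contralaterally, with medians of 6.23%, 6.30%, 6.31% and 6.32% mitochondrial UMIs in the same order. The shallowest members held 17546 and 14358 UMIs, whereas Il33-zero barcodes reached down to 738 and 699 UMIs, so absence of Il33 RNA and lack of capture cannot be told apart in single Il33-zero barcodes.

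Where the rule looked for them, members were a smaller share of mature barcodes on the ipsilateral side. Among mature barcodes free of C4b, Serpina3n and Klk6, 72 of 538 ipsilateral ones held Il33 (13.4%, exact binomial interval 10.6 to 16.6), against 85 of 411 contralateral ones (20.7%, 16.9 to 24.9). The difference was -7.30 points (Newcombe interval -12.4 to -2.34). With each barcode thinned to 14850 UMIs, which left out 69 ipsilateral and 26 contralateral barcodes, the shares were 9.81% and 14.0% and the difference was -4.22 points (-8.85 to 0.288).

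The barcodes that the rule left out showed the opposite order. Among mature barcodes with C4b, Serpina3n or Klk6, 116 of 529 ipsilateral ones held Il33 (21.9%), against 25 of 187 contralateral ones (13.4%), a difference of 8.56 points (1.87 to 14.5), or 9.21 points (3.20 to 14.3) after thinning. Over all mature barcodes the shares were 17.6% ipsilaterally and 18.4% contralaterally, a difference of -0.775 points (-4.80 to 3.101). After thinning they were 13.9% and 12.3%. These intervals cover counting of barcodes in 1 library per side and do not show a difference between sides.

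The level of Il33 separated the populations more than the share did. In ipsilateral mature barcodes with C4b, a complement component, or Serpina3n, a protease inhibitor, Il33 stood at 65.4 CPM (60.9 to 70.1), against 13.2 CPM (9.03 to 18.6) contralaterally. Those 100 ipsilateral barcodes with Il33 held 7.91 Il33 UMIs each on average and up to 39, against 2.01 per ipsilateral member. With Klk6, a secreted protease, as the only one of the 3 genes, Il33 stood at 10.9 CPM ipsilaterally and 5.54 CPM contralaterally. In mature barcodes with none of the 3 genes it stood at 9.75 CPM (8.23 to 11.5) ipsilaterally and 18.0 CPM (15.7 to 20.6) contralaterally. Over all mature barcodes the levels were 30.5 CPM and 14.7 CPM. The members held 145 of 998 Il33 UMIs of ipsilateral mature barcodes, and 219 of 273 contralateral ones.

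Outside the mature barcodes, the level of Il33 was higher in barcodes with astrocyte markers than in the other 3 marker classes. It stood there at 12.7 CPM (6.35 to 22.8) ipsilaterally and 29.8 CPM (19.4 to 43.6) contralaterally, in 6 of 97 and 13 of 92 barcodes, at median depths of 8425 and 8612 UMIs. Barcodes with markers of neuroblasts, which should lack Il33, gave 2 of 458 (0.437%) and 4 of 494 (0.810%) at median depths of 10662.5 and 10778 UMIs, against 28310 and 27744 UMIs in the mature barcodes without the 3 genes. Thinned to the same 14850 UMIs, neuroblast-marker barcodes gave 0 of 155, which allows a share of up to 1.94% by 3 counts (exact upper limit 2.35%), and 1 of 160 (0.625%), far below the mature shares. Precursor-marker barcodes stood at 1.83 and 2.48 CPM, with Il33 in 11 of 421 and 8 of 327 barcodes. Endothelial-marker barcodes held Il33 in 0 of 125 ipsilaterally, which allows a share with an Il33 UMI of up to 2.4% by 3 counts (exact upper limit 2.91%), and in 1 of 181 contralaterally.

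**Figure D1:**
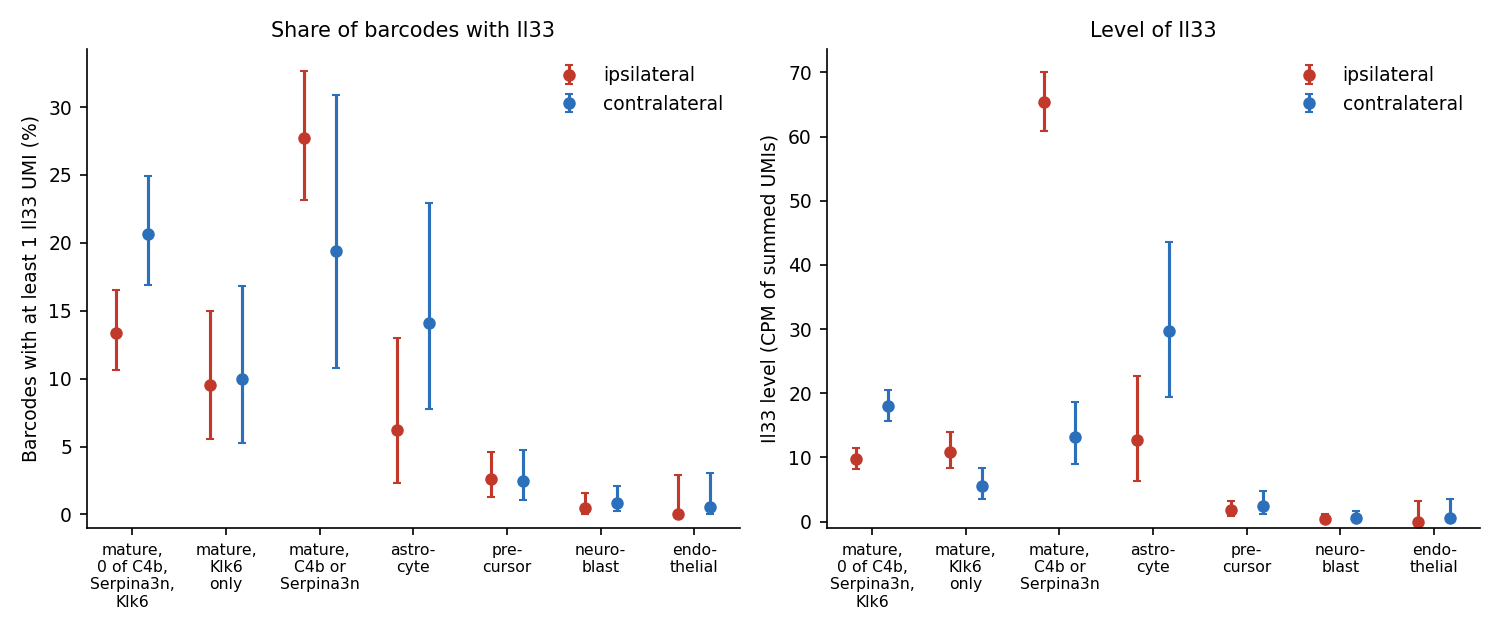
Il33 in mature barcodes split by C4b, Serpina3n and Klk6 and in barcodes with markers of other cell types; the left panel gives the percentage of barcodes with at least 1 Il33 UMI and the right panel the CPM of summed UMIs, ipsilateral (red) left of contralateral (blue), with exact 95% intervals for counting error. Ipsilateral mature barcodes with C4b or Serpina3n stood highest at 65.4 CPM, and neuroblast-marker barcodes stood below 1 CPM in both libraries.

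Ratios below are log2 ratios with 5 CPM added to each value, which draws ratios of low genes toward 0. Over 9399 genes with at least 50 UMIs in each library, 8 genes (0.0851% of those tested) had a ratio of at least 0.5 in both libraries, Il33 itself among them. A ratio of at most -0.5 in both libraries was found for 51 genes (0.543%). In the ipsilateral library alone 0.947% of the genes reached 0.5 and 1.89% reached -0.5, and in the contralateral library alone 0.596% and 3.12%. Ratios were above 0 in both libraries for 21.3% of the genes and below 0 in both for 33.0%.

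The receptor of interleukin-33 was not detected in the members, while its accessory chain was. Il1rl1, the receptor, had 0 UMIs in Il33-positive and Il33-zero barcodes of both libraries, as had Casp1 and Gsdmd, which act in inflammatory cell death. Il1rap, the shared accessory chain, stood at 151 CPM in ipsilateral Il33-positive and 163 CPM in Il33-zero barcodes, and at 178 and 166 CPM contralaterally. Myd88, the adaptor that links the receptor to its kinases, stood at 3.08 and 3.57 CPM ipsilaterally and at 1.55 and 4.59 CPM contralaterally. Nfkbia, an inhibitor of NF-kB, stood at 102 and 99.6 CPM and at 89.3 and 85.7 CPM. Of 11 measured pathway genes, Il33 included, 2 lay above 0 and 4 below 0 in both libraries on the log2 scale. Over all genes tested, 21.3% lay above and 33.0% below 0 in both. Of related alarm signals, Il18 stood at 71.3 and 80.6 CPM ipsilaterally and 92.1 and 90.3 CPM contralaterally, and Hmgb1 at 785 and 799 CPM and at 839 and 837 CPM. Il1a had 0 UMIs in all 4 sets, and Il1b had 1 UMI in each library.

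Ptgds, the prostaglandin D synthase gene, was abundant in the members and higher in them in both libraries. It stood at 4005 CPM in ipsilateral Il33-positive barcodes, against 2553 CPM in Il33-zero ones, a ratio of 0.65. Contralaterally it stood at 2640 CPM in Il33-positive and 2159 CPM in Il33-zero barcodes, a ratio of 0.29. The ratio was above 0 under all 20 settings tried, from 0.50 to 0.95 ipsilaterally and from 0.22 to 0.70 contralaterally. Single members spread widely. The quartiles were 198, 1584 and 7301 CPM ipsilaterally, with a highest value of 19262 CPM, and 178, 642 and 3810 CPM contralaterally, with a highest value of 17412 CPM. The medians of Il33-zero barcodes were 513 and 285 CPM, and their ranges overlapped the members' ranges over nearly the whole scale.

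The rest of the prostaglandin list did not share the pattern of Ptgds. Of 7 measured genes of 20, only Ptgds lay above 0 in both libraries and 3 lay below 0 in both. The shares over all genes tested were 21.3% above and 33.0% below. Ptgs2, an inducible cyclooxygenase that makes the substrate of prostaglandin synthases, and Ptgdr, a prostaglandin D receptor, had 0 UMIs in all sets. Ptgs1, the other cyclooxygenase, had 1 UMI in contralateral members and none elsewhere. Pla2g4a, a phospholipase that releases arachidonic acid, stood at 61.6 CPM in ipsilateral Il33-positive and 64.2 CPM in Il33-zero barcodes, and at 44.3 and 57.6 CPM contralaterally. Hpgds, the other prostaglandin D synthase, had 8 UMIs in ipsilateral and 1 in contralateral members.

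**Figure D2:**
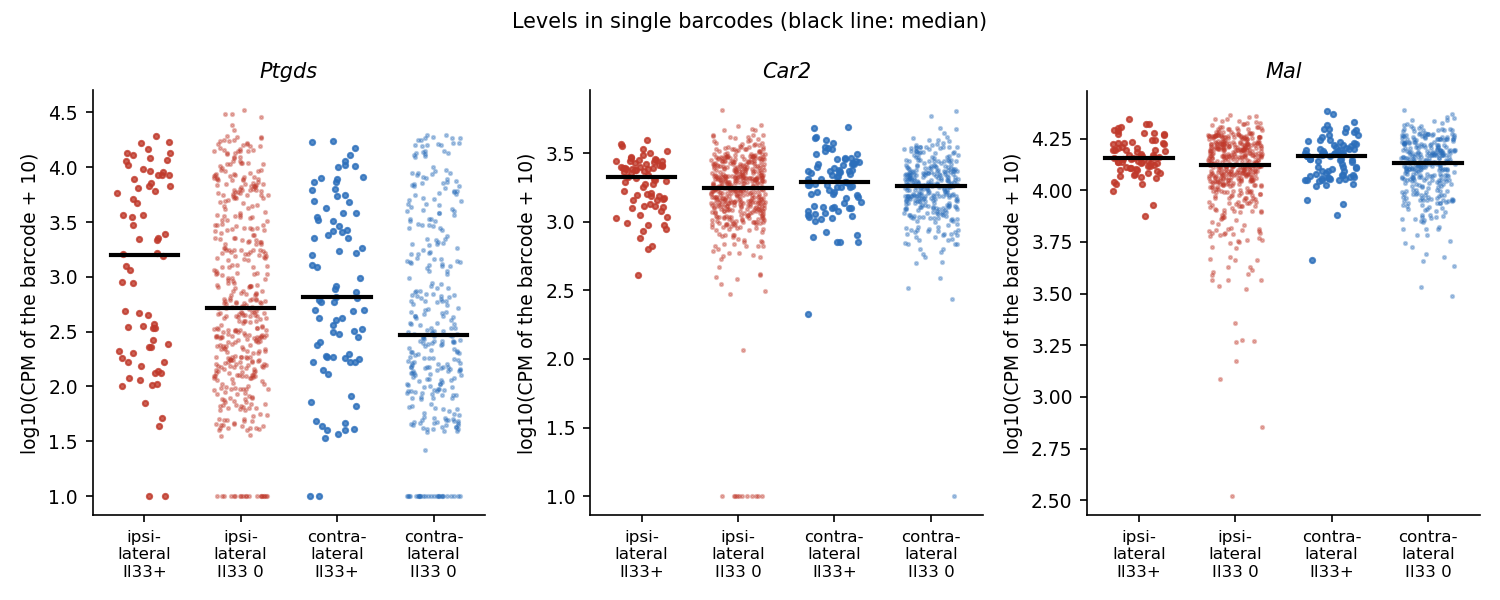
Levels of Ptgds, Car2 and Mal in single barcodes, as log10 of the barcode's CPM plus 10, for Il33-positive and Il33-zero barcodes of the ipsilateral (red) and contralateral (blue) library; each point is a barcode and the black line the median. Median Ptgds is higher in Il33-positive barcodes (1584 against 513 CPM ipsilaterally, 642 against 285 CPM contralaterally), with broad overlap, whereas Car2 and Mal medians lie close together.

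Car2 and the other genes known to accompany Il33 in mature oligodendrocytes were not higher as a group. Of 15 such genes 5 lay above 0 and 8 below 0 in both libraries, against 21.3% and 33.0% of all genes tested. Their median ratios were -0.07 ipsilaterally and -0.00 contralaterally, against -0.01 and -0.04 over all measured genes. Car2, the carbonic anhydrase, stood at 1987 CPM in ipsilateral Il33-positive and 1914 CPM in Il33-zero barcodes, and at 1972 and 1826 CPM contralaterally. Qdpr, which recycles the cofactor tetrahydrobiopterin, stood at 1257 and 1061 CPM and at 1335 and 1126 CPM, a ratio of 0.24 in each library. Jph4, a junctophilin that links the plasma membrane to the endoplasmic reticulum, was the companion past 0.5 in both libraries. It stood at 87.6 CPM in ipsilateral Il33-positive and 56.6 CPM in Il33-zero barcodes, and at 82.3 and 49.4 CPM contralaterally, and was found in 41 of 72 and 49 of 85 members.

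A single companion, Pmp22, was past -0.5 in both libraries. Pmp22, a myelin membrane protein best known from peripheral nerve, stood at 18.9 CPM in ipsilateral Il33-positive and 46.6 CPM in Il33-zero barcodes, a ratio of -1.11, and at 14.4 and 38.7 CPM contralaterally, a ratio of -1.17, and was found in 20 of 72 members and 152 of 466 Il33-zero barcodes, and in 22 of 85 and 95 of 326 contralaterally. Hapln2, a link protein of the matrix at nodes of Ranvier, stood at 92.5 and 132 CPM and at 95.6 and 130 CPM. Selenop, a selenium carrier, stood at 358 and 467 CPM ipsilaterally and at 228 and 362 CPM contralaterally. Apod, a lipocalin, stood near 0 on the ratio scale, at 2059 and 2222 CPM and at 1954 and 2161 CPM. So did Trf, transferrin, at 5519 and 5758 CPM and at 4767 and 4811 CPM, but it shares 63.8% of its words with other genes and is uncertain.

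The shared myelin genes stood close together in both sets. Of 20 myelin genes 7 lay above 0 and 7 below 0 in both libraries, with medians of -0.03 and 0.01, and none passed 0.5 in either direction in either library. Mbp, a main protein of compact myelin, stood at 6566 CPM in ipsilateral Il33-positive and 6671 CPM in Il33-zero barcodes, and at 5601 and 5840 CPM contralaterally. Opalin, a membrane glycoprotein of central myelin, had the largest positive ratio in each library, at 1436 and 1277 CPM ipsilaterally (0.17) and 1415 and 1204 CPM contralaterally (0.23). It stayed above 0 under all 20 settings. Of 17 transcription factors of the lineage 5 lay above 0 and 2 below 0 in both libraries. For this list and the myelin list, the shares over all genes tested were 21.3% above and 33.0% below. Sox10, Olig1 and Myrf, which set and keep oligodendrocyte identity, had ratios between -0.04 and 0.08.

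Apart from Jph4 and Il33, the genes past 0.5 in both libraries were Synpr, Stmn2, Igfbpl1, Ccnd2, Sox11 and the predicted gene Gm29773. Synpr, a synaptic vesicle protein, stood at 51.1 CPM in ipsilateral Il33-positive and 31.2 CPM in Il33-zero barcodes, and at 62.5 and 42.6 CPM contralaterally. It was spread over 42 of 72 and 60 of 85 members, and the barcode with most UMIs held 9.48% and 4.97% of them. Foxj1, a transcription factor known from ciliated cells, lay just under the threshold in the ipsilateral library, at 54.1 and 37.5 CPM (0.48), and stood at 79.6 and 50.4 CPM contralaterally (0.61). Tma16, a ribosome biogenesis factor, had ratios of 0.39 and 0.63, Gsto1, a glutathione transferase, 0.41 and 0.37, and Sema6d, a semaphorin, 0.36 and 0.36. Adamtsl4 (0.37 and 0.35) and the transcription factor Meis2 (0.79 and 0.46) completed the 10 highest. Thinned to equal depth, with members chosen anew, the contralateral ratios of Gsto1 and Adamtsl4 were -0.16 and -0.26. Foxj1 then had ratios of only 0.13 ipsilaterally and 0.084 contralaterally, and the ipsilateral ratio of Meis2 was 0.036. Without barcodes rich in other types' markers the contralateral ratio of Meis2 was 0.094.

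Ccnd2 and Sox11, which are abundant in dividing and migrating neuroblasts, had a large part of their UMIs in single barcodes. For Stmn2, Igfbpl1 and Gm29773 a single barcode held 74.2%, 54.2% and 90.4% of the members' ipsilateral UMIs. Contralaterally a single barcode held 65.9%, 65.0% and 32.8%. Ccnd2, a cyclin, stood at 22.9 CPM in ipsilateral Il33-positive and 10.2 CPM in Il33-zero barcodes, and at 68.7 and 19.1 CPM contralaterally. A single barcode held 50.0% of the ipsilateral and 78.0% of the contralateral members' Ccnd2 UMIs, and 47.6% and 76.7% of those of Sox11. Without each gene's top barcode the contralateral ratios were -0.20 for Ccnd2 and -0.71 for Sox11, under a setting that lowered the contralateral median of all genes to -0.090. The ipsilateral ratio of Sox11 was above 0 under all 20 settings, at the lowest 0.035 after thinning. That of Ccnd2 was above 0 under 17 of 20. The neuroblast markers together stood at 249 CPM in ipsilateral Il33-positive and 154 CPM in Il33-zero barcodes, and at 226 and 171 CPM contralaterally. All 10 were detected, and a single barcode held 197 of 565 UMIs in ipsilateral members and 246 of 582 in contralateral ones. Without barcodes rich in markers of neuroblasts, endothelial cells or precursors, a choice made after seeing the data, 5 genes instead of 8 were past 0.5 in both libraries.

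Genes lower in Il33-positive barcodes were more numerous, 51 against 8, or 17 against 15 with sets matched on total UMIs. Frmd4a, a scaffold protein of cell polarity, ranked first, at 17.2 CPM in ipsilateral Il33-positive and 48.3 CPM in Il33-zero barcodes (-1.27), and at 18.3 and 78.1 CPM contralaterally (-1.84). It was found in 26 of 72 members and 137 of 466 Il33-zero barcodes ipsilaterally, and in 28 of 85 and 120 of 326 contralaterally, and single Il33-zero barcodes held 18.9% and 15.9% of that set's UMIs. The median over single barcodes was 0 in all 4 sets, and the contralateral Frmd4a ratio was -0.87 without barcodes rich in other types' markers. S100b, a calcium-binding protein of glia, stood at 83.6 and 166 CPM (-0.95) and at 88.2 and 161 CPM (-0.83). It was found in 34 of 72 members and 287 of 466 Il33-zero barcodes, and in 54 of 85 and 191 of 326 contralaterally, where the medians of single barcodes were 39.5 and 36.4 CPM. Barx2, a homeobox factor, stood at 16.7 and 36.3 CPM and at 14.4 and 30.9 CPM. Bcan, the proteoglycan brevican, had ratios of -0.95 and -1.01, Gpr37l1, a receptor of astrocytes and immature oligodendrocytes, -0.91 and -0.80, and Pdcd4, an inhibitor of translation, -0.86 and -0.97. Tmem108 (-1.41 and -0.95), the cyclin Ccnd1 (-0.93 and -1.61) and Mgp, an inhibitor of calcification (-0.81 and -0.97), were also among the 10 lowest. Of these, Tmem108, Ccnd1 and Pdcd4 changed sign in a library under at least 1 setting. A single barcode held 52.4% of the 21 ipsilateral Ccnd1 UMIs of the members, 45.1% of the ipsilateral Bcan UMIs and 51.5% of the contralateral Mgp UMIs.

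**Figure D3:**
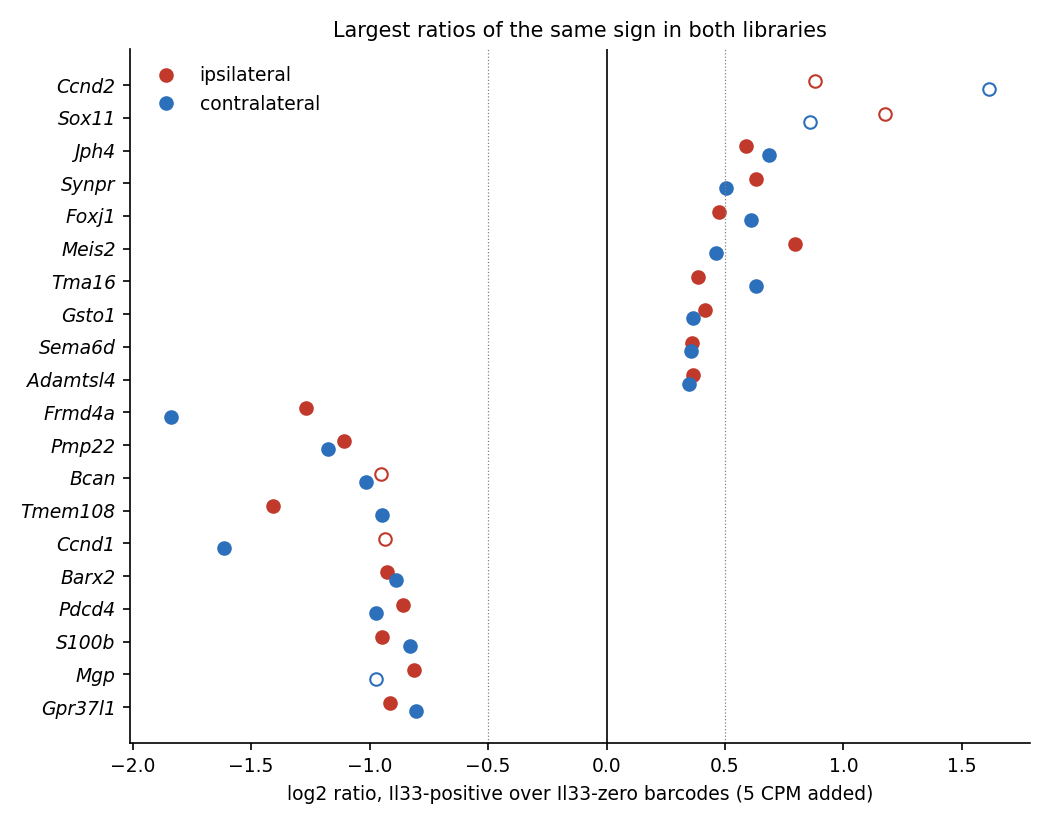
Log2 ratios, Il33-positive over Il33-zero, of the 10 highest and 10 lowest named genes in the ipsilateral (red) and contralateral (blue) library, with dotted lines at 0.5 and -0.5; open circles mark a gene and library where a single barcode held at least 40% of the Il33-positive set's UMIs. Ccnd2 and Sox11 are open in both libraries, while Jph4, Synpr, Frmd4a, Pmp22 and S100b are closed in both.

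Genes of the newly formed stage, which precedes full maturity, lay mostly below 0 as reported, but their median changed sign under some settings in each library. Of 17 measured genes 13 lay below 0 in both libraries and 1 above, against 33.0% and 21.3% of all genes tested. In both libraries 3 were past -0.5 (Enpp6, Tcf7l2 and Tnr), against 0.543% of all genes tested. Enpp6, a choline phosphodiesterase that marks newly forming oligodendrocytes, stood at 165 CPM in ipsilateral Il33-positive and 274 CPM in Il33-zero barcodes (-0.71), and at 181 and 287 CPM contralaterally (-0.65). It was below 0 under all 20 settings in both libraries, and the medians of single barcodes were 98.4 and 223 CPM ipsilaterally and 107 and 223 CPM contralaterally. Tcf7l2, a transcription factor of that stage, stood at 29.1 and 47.6 CPM and at 37.3 and 69.9 CPM. Yet it was found in a larger share of members in both libraries: 35 of 72 (48.6%) against 200 of 466 Il33-zero barcodes (42.9%) ipsilaterally, and 44 of 85 (51.8%) against 156 of 326 (47.9%) contralaterally. The medians of single barcodes were 0 and 0 CPM ipsilaterally and 18.9 and 0 CPM contralaterally. Single Il33-zero barcodes held 15.2% and 12.4% of that set's Tcf7l2 UMIs, and the contralateral ratio was -0.33 without barcodes rich in other types' markers. Tnr, the matrix protein tenascin-R, stood at 32.6 and 62.8 CPM and at 70.7 and 120 CPM, but changed sign under some settings. The list's medians were -0.19 ipsilaterally and -0.27 contralaterally, with values above 0 in the ipsilateral library without called doublets (0.071) and with at least 2 Il33 UMIs required (0.12), and in the contralateral library with depth matched (0.043). No direction is given for the list as a whole. The 10 precursor markers stood together at 209 CPM in ipsilateral Il33-positive and 297 CPM in Il33-zero barcodes, and at 321 and 551 CPM contralaterally. Of these markers 9 lay below 0 in both libraries, against 33.0% of all genes tested. The part of precursor markers in the newly formed list was not tested.

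Of 11 measured S100 and annexin genes, which bind calcium, 9 lay below 0 in both libraries, against 33.0% of all genes tested. S100b and Anxa5, 2 of the 11, were past -0.5 in both, against 0.543% of all genes. Anxa5, a phospholipid-binding protein, stood at 25.1 CPM in ipsilateral Il33-positive and 40.6 CPM in Il33-zero barcodes, and at 21.4 and 36.2 CPM contralaterally, with an ipsilateral ratio of 0.18 where barcodes with C4b, Serpina3n and Klk6 were allowed. S100a6 stood at 70.4 and 93.9 CPM and at 54.0 and 98.6 CPM. Anxa5 is also known from Klk6-type mature cells, and barcodes with Klk6 are in neither set. Cdkn1c, a cell-cycle inhibitor, stood at 28.6 and 76.0 CPM ipsilaterally (-1.27) and at 29.9 and 49.1 CPM contralaterally (-0.63).

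Several genes were graded by the number of Il33 UMIs. Barcodes were taken with 0, 1 and at least 2 Il33 UMIs, which held 466, 46 and 26 ipsilateral and 326, 43 and 42 contralateral barcodes. Ptgds stood at 2553, 3503 and 4891 CPM in that order ipsilaterally and at 2159, 2216 and 3116 CPM contralaterally. Opalin stood at 1277, 1396 and 1506 CPM and at 1204, 1331 and 1509 CPM. Jph4 stood at 56.6, 84.1 and 93.8 CPM and at 49.4, 77.9 and 87.3 CPM. These genes were higher at each step in both libraries.

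Some of the lower genes ran the other way. S100b stood at 166, 103 and 48.7 CPM ipsilaterally and at 161, 123 and 48.6 CPM contralaterally, from 0 to at least 2 Il33 UMIs. Enpp6 stood at 274, 207 and 90.2 CPM and at 287, 215 and 143 CPM, and Pmp22 at 46.6, 22.1 and 13.4 CPM and at 38.7, 18.4 and 9.89 CPM. Selenop stood at 467, 442 and 211 CPM and at 362, 262 and 189 CPM. Others had no such order in a library: Tcf7l2 stood at 47.6, 24.1 and 37.8 CPM ipsilaterally, Apod at 2222, 2288 and 1654 CPM ipsilaterally, and Anxa5 at 36.2, 20.6 and 22.2 CPM contralaterally. Median depth of the 3 classes lay between 27951 and 30379.5 UMIs ipsilaterally and between 26014.5 and 29644 UMIs contralaterally, and contralaterally the class with most Il33 was the shallowest.

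**Figure D4:**
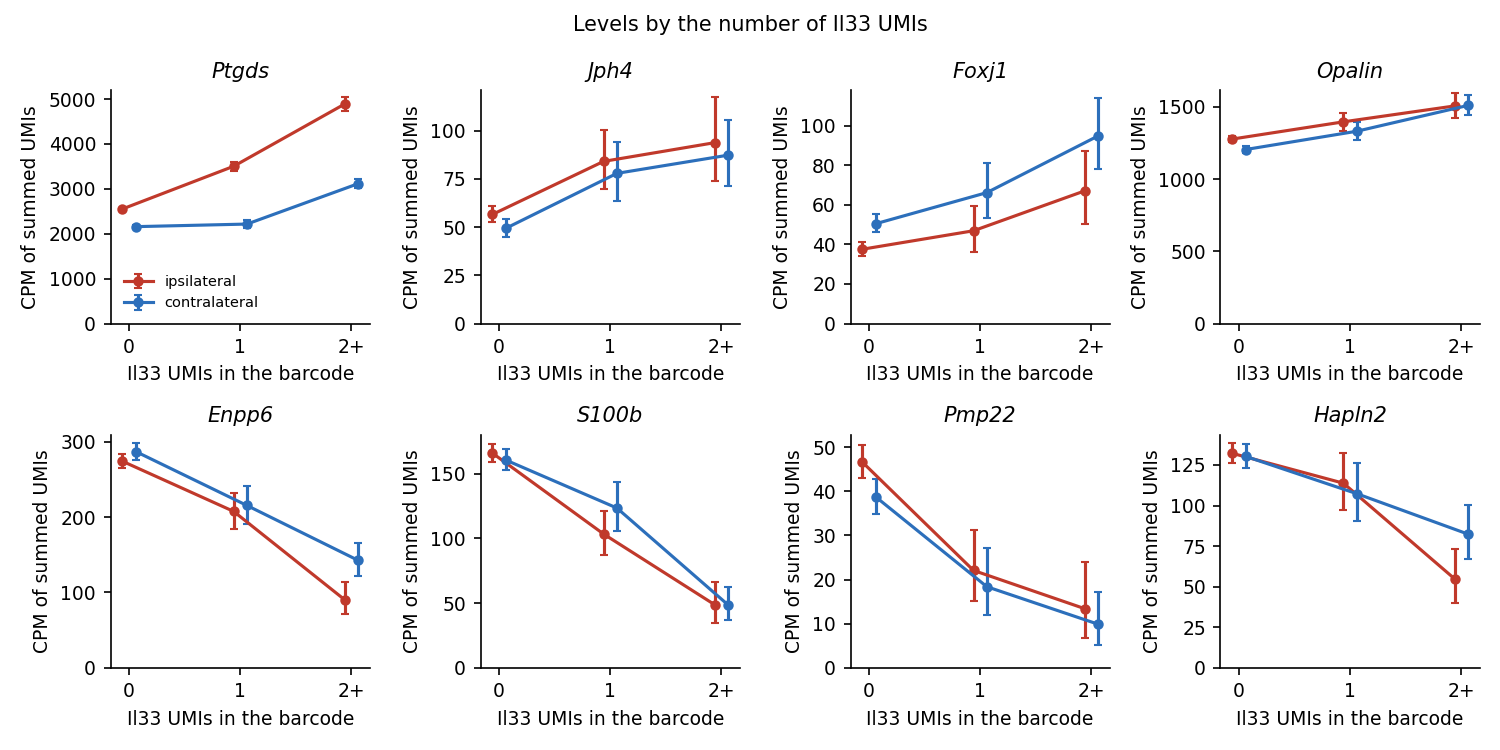
CPM of summed UMIs with exact Poisson 95% intervals for 8 genes in barcodes with 0, 1 and at least 2 Il33 UMIs, ipsilateral (red) and contralateral (blue). Ptgds, Jph4, Foxj1 and Opalin are higher and Enpp6, S100b, Pmp22 and Hapln2 lower with more Il33 UMIs in both libraries.

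Between the sides, Il33-positive barcodes of the ipsilateral library had higher levels of several immediate early genes. Of 7513 genes with at least 50 UMIs over both libraries, 15 (0.2%) had a ratio of at least 1, ipsilateral over contralateral, and 18 (0.24%) a ratio of at most -1. In Il33-zero barcodes, of which there were more, these were 6 (0.0577%) and 9 (0.0865%) of 10405 genes.

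Neat1, a nuclear long noncoding RNA, stood at 231 CPM in ipsilateral and 74.2 CPM in contralateral Il33-positive barcodes, a ratio of 1.57, against 0.04 in Il33-zero barcodes. It was found in 50 of 72 and 52 of 85 members. Klf6, a zinc-finger factor induced by injury, stood at 263 and 99.4 CPM (1.36, against 0.51 in Il33-zero barcodes), and Zfp36, which promotes decay of cytokine mRNAs, at 321 and 132 CPM (1.25, against 0.27). Atf3, a stress-induced factor, stood at 35.7 and 5.44 CPM (1.96), in 16 and 7 members, and had a ratio of -0.24 in Il33-zero barcodes. Within each library the first 3 genes differed from Il33-zero barcodes in opposite directions: Neat1 had a ratio of 0.80 ipsilaterally and -0.73 contralaterally, Klf6 0.12 and -0.73, and Zfp36 0.52 and -0.46. The difference between the members' and the Il33-zero ratios was not tested, since each side is 1 library.

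Immediate early genes, which cells switch on quickly and briefly after a stimulus, mostly lay above 0. Of 20 genes 18 lay above 0, against 4447 of 9356 over all measured genes, and 4 reached 1 (Atf3, Klf6, Zfp36 and Egr2), against 0.2% of the genes tested. The list's median was 0.34, against -0.01 over all genes and 0.16 for the same list in Il33-zero barcodes. Junb, a subunit of the factor AP-1, stood at 949 CPM in ipsilateral and 479 CPM in contralateral members (0.98, against 0.74 in Il33-zero barcodes). Egr2 stood at 192 and 92.4 CPM, Ier2 at 489 and 282 CPM and Fos at 3020 and 2323 CPM. The median stayed between 0.25 and 0.75 under all settings. Of 14 measured heat shock genes 7 lay above and 7 below 0, with none at 1 or more, and of 12 genes of the integrated stress response 10 lay above 0, also with none at 1 or more.

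Socs3 and the antigen presentation genes H2-D1 and B2m were higher ipsilaterally in both kinds of barcode. Socs3, a feedback inhibitor of cytokine signalling, stood at 76.6 CPM in ipsilateral and 29.1 CPM in contralateral members (1.26, against 1.06 in Il33-zero barcodes). H2-D1, a class I heavy chain, stood at 54.1 and 31.1 CPM (0.71, against 1.28), and B2m, the class I light chain, at 52.8 and 27.2 CPM (0.85, against 1.02). H2-D1 shares 26.7% of its words with other genes, and a single barcode held 43.8% of its contralateral UMIs in members. Of 8 measured class I genes 7 lay above 0, against 4447 of 9356 over all measured genes. None of the 8 reached 1, and their median was 0.34. In Il33-zero barcodes the median was 0.01 over 11 measured genes, of which 2 reached 1, so the medians cover different genes. Psmb10, a subunit of the immunoproteasome, was the 1 past -1, at 3.96 and 13.2 CPM (-1.02). Ptgds had a side ratio of 0.60 in members, at the 4005 and 2640 CPM given above, and of 0.24 in Il33-zero barcodes.

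Interferon-response genes were few and uneven. Of 7 measured genes 4 reached 1, against 21 of 9356 over all measured genes. The median was 1.07 (the ratio of Irf1), against 0.24 over 15 measured genes in Il33-zero barcodes, so the medians cover different genes. Of the 4, Ifi27l2a, Bst2 and Irf1 had 0, 3 and 4 contralateral UMIs and reached the minimum of 20 UMIs through the ipsilateral library. The count of 4 and the median thus depend on that filter, and no direction is given for the list as a whole. Ifi27, a mitochondrial interferon-induced protein, stood at 153 CPM in ipsilateral and 67.6 CPM in contralateral members (1.12, against 0.90) and Irf1, a transcription factor, at 8.80 and 1.55 CPM, on 20 and 4 UMIs. A single barcode held 50% of the Irf1 UMIs on each side. Ifi27l2a had 74 UMIs (32.6 CPM) in ipsilateral members and 0 in contralateral ones. Against a floor of 3 counts over the contralateral members this was 27.96-fold. That value treats UMIs as independent and is no lower bound over barcodes. The gene was confined to 5 of 72 ipsilateral members, and the barcode with most held 46 of the 74 UMIs. Without that barcode the same calculation gave 10.6-fold. With members chosen anew after thinning to equal depth the ratio of Ifi27l2a was 0. In Il33-zero barcodes Ifi27l2a stood at 26.0 CPM ipsilaterally and 6.99 CPM contralaterally (1.37). Bst2 stood at 23.3 and 1.17 CPM, with 49 of its 53 ipsilateral UMIs in a single barcode.

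The genes lower ipsilaterally included several that mark other cells. Cldn5, a tight-junction protein of brain endothelium, stood at 2.20 CPM in ipsilateral and 24.5 CPM in contralateral members (-2.03), with 73.0% of the contralateral UMIs in a single barcode. The 8 endothelial markers together stood at 27.7 and 104 CPM in members, against 26.7 and 32.7 CPM in Il33-zero barcodes, and a single contralateral member held 182 of the 267 UMIs. Without barcodes rich in markers of neuroblasts, endothelial cells or precursors, the Cldn5 ratio was -0.81. Bmp4 (-1.66), a signal of committed precursors, and Sox6 (-1.54), a precursor factor, stood beside precursor markers summing to 209 CPM in ipsilateral and 321 CPM in contralateral members. Their part in these ratios was not tested. Marcks, a substrate of protein kinase C, had a ratio of -1.40, and a single barcode held 44.2% of its contralateral and 56.2% of its ipsilateral UMIs; a single contralateral barcode held 78.0% of the UMIs of Ccnd2 (-1.40) and 49.1% of those of Spock2 (-1.03). The part of these markers in the ratios of the other genes was not tested.

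Of the genes with better spread counts, Usp50 stood at 16.3 CPM in ipsilateral and 39.2 CPM in contralateral members, in 29 of 72 and 56 of 85 barcodes. Its ratio was -1.05, against -0.51 in Il33-zero barcodes. Edem1, which directs misfolded proteins to degradation, stood at 18.0 and 42.3 CPM (-1.04, against -0.17). Nppc, a natriuretic peptide, stood at 8.80 and 32.2 CPM (-1.43, against -0.23), with 31.3% of its contralateral UMIs in a single barcode. Nutf2 (-1.02, against -0.68) shares 43.4% of its words with other genes and is uncertain. Of the remaining high genes, Nr4a2, an orphan nuclear receptor, had a ratio of 1.41. Ptcra had a ratio of 1.78, with 39.1% of its ipsilateral UMIs in a single barcode and 6 contralateral UMIs. Meg3 (1.33), a noncoding RNA of neurons, had 56.2% of its ipsilateral UMIs in a single barcode and a ratio of -0.95 without barcodes rich in other types' markers. The 9 neuron markers together stood at 59.9 CPM in ipsilateral and 29.1 CPM in contralateral members.

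**Figure D5:**
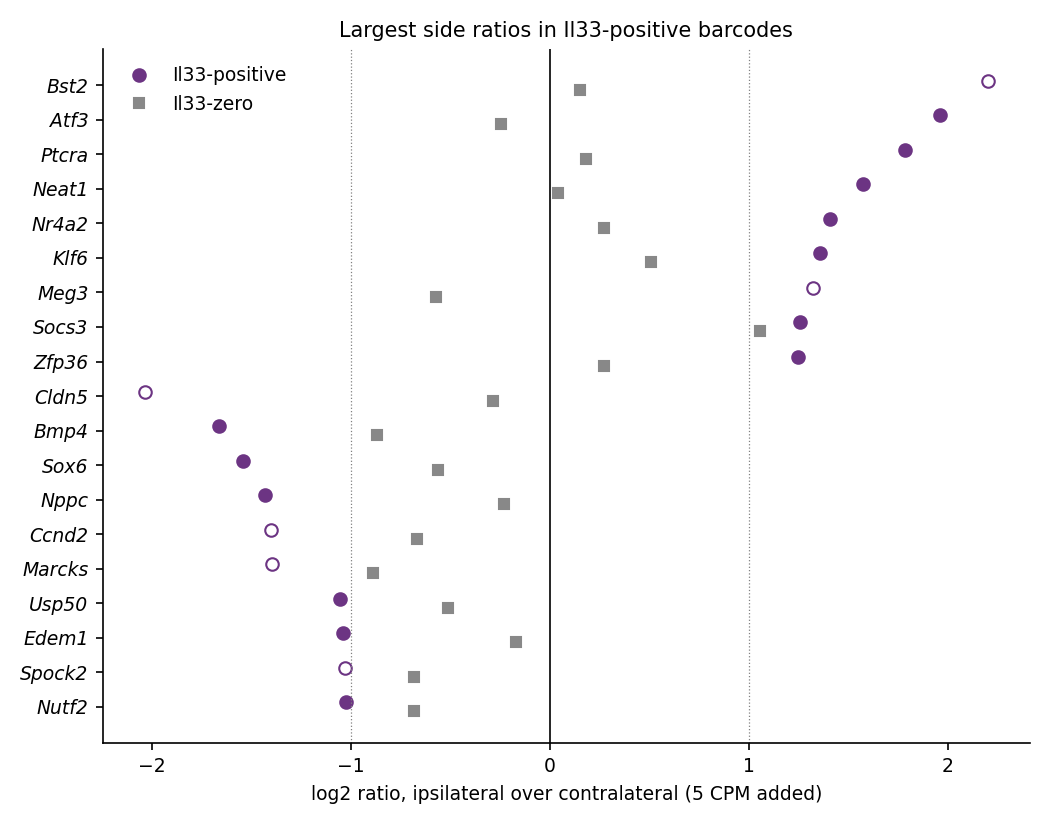
Log2 ratios, ipsilateral over contralateral, of the named genes in Il33-positive barcodes (purple circles) and the same genes in Il33-zero barcodes (grey squares), with dotted lines at 1 and -1. Ifi27l2a, with 0 contralateral UMIs in Il33-positive barcodes, is left out. Open circles mark genes with at least 40% of the UMIs of the higher side in a single barcode (Bst2, Meg3, Cldn5, Ccnd2, Marcks and Spock2); Neat1 and Atf3 lie past 1 in Il33-positive barcodes, with Il33-zero ratios of 0.04 and -0.24.

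Immune cell markers were scarce in the members and in Il33-zero barcodes alike. Markers of microglia stood at 21.6 CPM in ipsilateral and 11.7 CPM in contralateral members, with 8 of 12 genes at 0 in each, Cx3cr1 and Tmem119 among them. In Il33-zero barcodes they stood at 19.2 and 16.6 CPM. At least 1 such UMI was found in 47.2% of ipsilateral members and 37.6% of Il33-zero barcodes, and in 27.1% and 36.8% contralaterally. The 8 markers of T cells and innate lymphoid cells, which carry the interleukin-33 receptor, were all at 0 in both kinds of barcode. Astrocyte markers stood at 82.3 and 88.9 CPM in members, against 91.3 and 111 CPM in Il33-zero barcodes. Scrublet called 2 ipsilateral and 1 contralateral members doublets, against 24 and 3 Il33-zero barcodes, and no barcode sequence occurred in both libraries.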

How the data were processed

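Single-cell RNA was measured in 1 ipsilateral and 1 contralateral library. The deposited values were whole UMI counts per gene and barcode, made by the authors with Cell Ranger 3.1.0 and the mm10 build, per the submitters' processing notes. The annotation behind the counts is not given in the sources used here. In all, the files held 31053 genes, with 54788795 and 36063045 UMIs (ipsilateral, contralateral), medians of 17607 and 13238.5 per barcode.

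From these counts, UMIs were summed per set and library, scaled to CPM and given exact Poisson intervals; shares have exact binomial intervals and share differences Newcombe intervals. Log2 ratios had 5 CPM added. Ratios were called over genes with at least 50 UMIs, and lists over genes with at least 20. Barcodes outside the mature ones were classed by marker UMIs per 10000 (at least 10 for neuroblasts and precursors, 20 for astrocytes and endothelial cells), in exactly 1 class. Named genes were the 10 with the largest ratio each way that had at least 20 CPM in a set, within libraries ranked by the smaller of both ratios with the same sign, and leaving out mitochondrial, ribosomal, predicted and rule genes. The most divergent members of each list were named too; Gm29773, Stmn2, Igfbpl1, Junb and Ier2 were named after their values were seen. Members and gene lists were chosen with earlier results of these data known. Doublets were kept, and removing those called by Scrublet was an alternative (101 of 2505 ipsilateral, 14 of 1913 contralateral barcodes called). Shared sequence is the share of a gene's 31-base transcript words also found in other genes. Python 3.11.15, numpy 2.4.6, scipy 1.17.1, pandas 2.3.3, scanpy 1.11.5 and matplotlib 3.10.9 were used. The code for ratios and their intervals was checked on simulated Poisson sums. These had no variation between barcodes, so they do not show how the intervals behave where single barcodes hold many UMIs. No test was made, since each side has 1 library.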

Additional observations from a re-analysis of the deposited data

How the results depend on the processing

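No paired analysis was possible because each side has 1 library. Depth limits Il33, since most members held a single Il33 UMI. Of the summary values under alternative settings, 175 stayed close to those reported and 45 moved; the causes were not tested. The difference in share with Il33 lay between -7.77 and -0.775 points. Gene counts below are given as higher and lower in Il33-positive barcodes (8 and 51 as reported) and higher and lower ipsilaterally (15 and 18).

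With at least 2 Il33 UMIs required, 16 and 137 genes were called and 30 were higher ipsilaterally. The newly formed medians were then 0.12 (ipsilateral) and -0.62 (contralateral), and the immediate early median was 0.75. The shares were 5.285% and 11.4%, taken over barcodes with 0 or at least 2 Il33 UMIs only, since those with 1 were left out. Side ratios turned to 0.88 for Marcks and 0.12 for Spock2. Without called doublets 22 genes were lower, the ipsilateral newly formed median was 0.071, the ipsilateral ratios turned to 0.26 for Fyn, 0.33 for Tnr and 0.56 for Ccnd1, and the Meg3 side ratio to -0.23.

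With C4b, Serpina3n and Klk6 allowed, 10 genes were lower, 55 were higher and 7 lower ipsilaterally, the ipsilateral companion median was 0.042, the contralateral newly formed median -0.55, the ipsilateral share 17.6% and the difference -0.775 points. Ipsilateral ratios turned to 0.18 for Anxa5, 0.32 for Fyn, 0.21 for Tnr, -0.066 for Ccnd2, 0.14 for Tmem108, 0.019 for Ccnd1 and 0.49 for Pdcd4. The smaller ratios of Apod, Trf and Mal turned to 0.042, 0.087 and -0.052. Side ratios turned to 0.65 for Bmp4 and 0.49 for Marcks. The side ratio of Il33 itself, -0.39 as reported, turned to 0.98. Those of H2-D1 and B2m rose to 2.66 and 1.90.

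Thinned to equal depth, 13 and 92 genes were called, the shares were 9.81% and 14.0%, the ipsilateral Ccnd2 ratio was -0.33, and the contralateral ratios of Gsto1 and Adamtsl4 were -0.16 and -0.26. Adding 1 CPM gave 14 and 126 genes, and 34 and 32 between sides; adding 20 CPM gave 3 and 16, and 6 and 4. With barcodes weighted equally 4 genes were higher. Without a minimum of UMIs 33 were lower ipsilaterally, and a minimum of 200 gave 3 and 31, and 7 and 3 between sides. With sets matched on total UMIs, 15 and 17 genes were called and 10 were lower ipsilaterally. The newly formed medians were then -0.69 and 0.043, and ratios turned to 0.29 for Ccnd1 (ipsilateral), 0.22 for Tnr and 0.070 for Tmem108 (contralateral) and 0.41 for the Ccnd2 side ratio.

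Both remaining settings were chosen after seeing the data. Without each gene's top barcode 1 gene was higher and 114 lower, the newly formed medians were -0.48 and -0.46, and contralateral ratios turned to -0.20 for Ccnd2 and -0.71 for Sox11. Each gene's top barcode was taken from every set, and total UMIs were kept. The smaller Il33-positive sets lose a larger part of their UMIs by this, which draws ratios down by construction. The median of all genes was then -0.081 ipsilaterally and -0.090 contralaterally, the lowest of all settings. Without barcodes rich in other types' markers 5 genes were higher, and ratios turned to -0.028 (ipsilateral) and -0.089 (contralateral) for Ccnd2 and -0.95 for the Meg3 side ratio.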
